A study of Homo sapiens with 6 samples.

Results

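SPANX genes encode small sperm proteins, and the probe annotation of the Affymetrix Human Genome array used (type A of the U133 design, version 2.0) assigns 3 probe sets to them. These were taken as the members and cover 4 genes (SPANXA1, SPANXA2, SPANXB1 and SPANXC) of the 13119 genes named on the array. SUM-159 cells, a triple negative breast cancer (TNBC) line, were stably transfected with SH3GL2 in a pcDNA 3.1 plasmid or with the empty vector, and 3 arrays were run per group. SH3GL2 (Endophilin A1) is an adaptor protein of endocytosis that the study examines as a metastasis suppressor. The stable cells were kept in G418, and the methods speak of stable clones without giving their number. An effect of SH3GL2 and a property of the transfected clones therefore cannot be told apart on these arrays. Beyond the arrays, the paper reports less SPANXB1 protein with SH3GL2 in further TNBC lines. It also reports SPANXB1 protein and mRNA regained after SH3GL2 knockdown in cells depleted of SPANXB1. Neither the labels nor the methods say whether the triplicates were separate cultures, so the p-values measure only the spread between these arrays, which may be technical.

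The SPANX genes measured here lie in a cluster on the long arm of the X chromosome and are copies of one another with very similar sequences. In the testis they are expressed after meiosis in spermatids, and the proteins are found around the sperm nucleus. They belong to the cancer testis antigens (CTAs), which are silent in most other adult tissues, largely through DNA methylation of their promoters, and are made again in many tumors. RefSeq lists 10 protein-coding SPANX genes, of which the annotation names 4 on this array. No probe set is named for the other 6, among them SPANXD and the SPANXN genes.

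The promoters are set side by side here because they show how alike the measured genes are just outside their transcripts. The 250 bases before each annotated start site were read from RefSeq (build GRCh38.p14), and capitals mark CG pairs, the sites of DNA methylation. SPANXB1 is at chrX:141002344-141002593 (plus strand), SPANXC at chrX:141242518-141242767 (minus strand) and SPANXA1 at chrX:141584739-141584988 (minus strand).
SPANXB1: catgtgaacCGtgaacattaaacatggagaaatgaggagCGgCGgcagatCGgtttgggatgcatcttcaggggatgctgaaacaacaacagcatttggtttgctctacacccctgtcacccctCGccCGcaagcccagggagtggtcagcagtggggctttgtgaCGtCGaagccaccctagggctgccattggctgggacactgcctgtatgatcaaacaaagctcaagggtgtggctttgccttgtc
SPANXC: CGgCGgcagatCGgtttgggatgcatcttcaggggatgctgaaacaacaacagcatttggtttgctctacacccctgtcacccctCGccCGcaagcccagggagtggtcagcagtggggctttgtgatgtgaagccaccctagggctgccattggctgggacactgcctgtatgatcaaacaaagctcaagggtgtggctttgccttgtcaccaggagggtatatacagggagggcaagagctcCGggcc
SPANXA1: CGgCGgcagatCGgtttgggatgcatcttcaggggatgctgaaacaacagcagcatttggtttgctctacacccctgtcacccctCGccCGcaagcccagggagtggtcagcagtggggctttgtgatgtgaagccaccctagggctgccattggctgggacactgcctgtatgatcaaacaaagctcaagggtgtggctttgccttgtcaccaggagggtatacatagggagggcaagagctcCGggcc
SPANXA2 (chrX:141589458-141589707, plus strand) had the same 250 bases as SPANXA1. SPANXA1 and SPANXC differed at 3 of 250 bases. The SPANXB1 window lies further from the others' start, and over the 210 bases that align it shared 209 with SPANXC and 208 with SPANXA1, with 1 gap in each case. SPANXB1 held 8 CG pairs and the other promoters 6 each, against a median of 11 over 35116 RefSeq promoters of the same length. CG pairs and motifs were sought over each whole window, so those of SPANXB1 and of the others cover partly different bases. The motif CCAAT, searched on both strands, was present in all 4 and in 32.0% of all promoters. TATAAA (10.7% of all promoters) and GGGCGG (42.6%) were found in none of the 4. No methylation was measured, and these letters are a description of the promoters only.

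The annotation gives the first probe set (220921_at) to SPANXB1 alone, the second (220922_s_at) to SPANXA1, SPANXA2, SPANXB1 and SPANXC, and the third (220217_x_at) to SPANXA1, SPANXA2 and SPANXC. They are called the SPANXB1, the 4-gene and the 3-gene probe set below. The same annotation names for each probe set the transcript it was designed from. That transcript belongs to SPANXA1 in RefSeq for both the SPANXB1 and the 4-gene probe set, and to SPANXC for the 3-gene probe set. The gene assignment of the SPANXB1 probe set and the RefSeq name of its source transcript therefore disagree. Probe sequences were not used here, so which SPANX transcripts each probe set binds was not tested.

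As a check of the labels, SH3GL2 had log2 signals of 3.15, 3.33 and 3.29 in the SH3GL2 arrays, against 3.24, 3.18 and 3.25 in the empty vector arrays. As a reference for signal without a transcript, 51 genes that mark other organs were taken, whose 81 probe sets had a median of 4.86. Both means of the SH3GL2 probe set lay below it and differed by 0.03 (limma, adjusted p = 0.909), so the arrays labelled SH3GL2 showed no more signal of the transfected gene and did not bear out their label. Whether the probes lie in the transfected sequence was not tested. The paper itself reports SH3GL2 overexpression in its stably transfected SUM-159 cells. From its arrays it gives SPANXB1 mRNA as 12.1-fold lower with SH3GL2, and the SPANXB1 probe set here had the same direction and size. Both come from the same arrays and labels, so this match is no check of the labels. The groups are named by their labels, and every direction given rests on them. The 95th percentile of this reference was 7.03. As to the cell line, VIM (14.58 and 14.68 in the SH3GL2 and empty vector means) and CD44 (11.58 and 11.78) were bright, and ESR1, PGR, CDH1 and EPCAM lay below 7.03 in both groups. ERBB2 lay above it (8.45 in the SH3GL2 arrays and 8.50 in the empty vector arrays). None of 6 germ cell markers and none of 5 markers of blood and vessel cells had a group mean above 7.03. Array medians ran from 6.97 to 7.02.

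All 3 SPANX probe sets were markedly lower in the arrays labelled SH3GL2, where 2.18% of all 22215 probe sets were called lower in limma. In 8.97% of them, SPANX included, all SH3GL2 arrays lay below all empty vector arrays. The SPANXB1 probe set had log2 signals of 7.66, 8.05 and 7.84 in the SH3GL2 arrays, against 11.40, 11.46 and 11.48 in the empty vector arrays. The groups were 3.35 apart at their nearest arrays, far more than the spread within either group. The mean was 7.85 ± 0.20 with SH3GL2 and 11.45 ± 0.04 with empty vector (SD, n = 3 each), so that it fell by 3.60 on the log2 scale with a standard error of 0.09 (adjusted p = 9.41e-11 in limma), and the SH3GL2 signal was 8.27% of the empty vector signal.

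The 4-gene probe set had 9.02, 9.36 and 9.14 in the SH3GL2 arrays, against 12.59, 12.72 and 12.57 in the empty vector arrays. It was the brightest of the 3 in every array, and its groups were 3.21 apart at their nearest arrays. Its mean was 9.17 ± 0.17 with SH3GL2 and 12.63 ± 0.08 with empty vector (SD, n = 3 each). It fell by 3.45 on the log2 scale with a standard error of 0.08 (limma, adjusted p = 9.41e-11), which left 9.13% of the empty vector signal. The 3-gene probe set had 7.83, 8.07 and 8.0 in the SH3GL2 arrays, against 10.83, 10.96 and 10.81 in the empty vector arrays. Its mean was 7.97 ± 0.12 with SH3GL2 and 10.87 ± 0.08 with empty vector (SD, n = 3 each). Its decrease was smaller, at -2.90 with a standard error of 0.08 (limma, adjusted p = 1.96e-10), and left 13.4%. This is the smallest change of the family, with a gap of 2.74 between the groups.

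**Figure D1:**
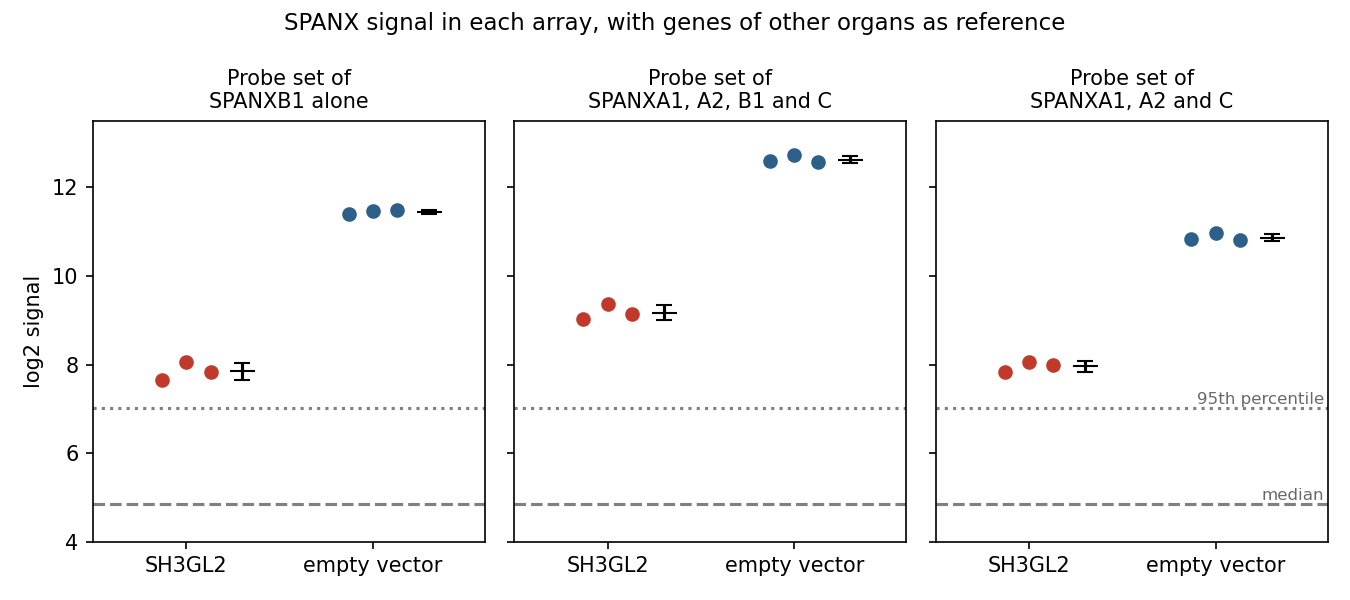
Log2 signal of the 3 SPANX probe sets in SH3GL2 and empty vector arrays of SUM-159 cells, where each point is an array, each bar a mean with its SD (n = 3), and the lines mark the reference median (4.86) and its 95th percentile (7.03). In each panel the SH3GL2 arrays lie below the empty vector arrays and above the 95th percentile.

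The exact permutation test of 3 against 3 arrays gave p = 0.1 for each probe set (two-sided), the smallest p this design allows. The study singled out SPANXB1 on these same arrays, so the p-values are no independent evidence of its decrease. The p-values of the 3 probe sets do not add to each other either, since the genes they are assigned to overlap. Fewer cells that express SPANX and less SPANX RNA per cell cannot be told apart in bulk RNA.

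The decrease did not bring the signals to the level of the reference. With SH3GL2 the mean of the SPANXB1 probe set was still 2.99 above the reference median on the log2 scale, that of the 4-gene probe set 4.32 and that of the 3-gene probe set 3.11. With empty vector these distances were 6.59, 7.77 and 6.01. In all 6 arrays each SPANX probe set was brighter than 7.03. SPANX signal was thus lower in the arrays labelled SH3GL2 and still above the reference.

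The place of SPANX among all probe sets of an array moved accordingly. Such a rank depends on the affinity of the probes and does not order transcripts by amount. The SPANXB1 probe set was brighter than 59.0% to 63.9% of probe sets in the SH3GL2 arrays and than 94.5% to 94.8% in the empty vector arrays. It ranked between 7992 and 9071 from the top with SH3GL2, against 1158 to 1208 with empty vector. The 4-gene probe set was brighter than 76.4% to 79.8% of probe sets in the SH3GL2 arrays, against 97.7% to 98.0% in the empty vector arrays, where it ranked 443 to 507 from the top. The 3-gene probe set was brighter than 61.3% to 64.2% with SH3GL2 and than 91.4% to 92.6% with empty vector. Signals reached 15.31 on these arrays, well above the brightest SPANX value of 12.72.

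The probe sets were then compared in the size of their change. Within each array the log2 signal of one probe set was subtracted from that of another, which cancels any scaling of the whole array, and these differences were compared between the groups. The SPANXB1 minus 3-gene difference was -0.17, -0.02 and -0.16 in the SH3GL2 arrays, against 0.57, 0.50 and 0.67 in the empty vector arrays. The groups did not overlap, and the SPANXB1 probe set fell by 0.70 (standard error 0.07) more on the log2 scale, a 1.62-fold larger decrease. The 4-gene minus 3-gene difference was 1.19, 1.29 and 1.14 with SH3GL2, against 1.76 in all 3 empty vector arrays, where the values are given to 2 decimals. The 4-gene probe set thus fell by 0.55 (standard error 0.04) more than the 3-gene one.

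The SPANXB1 and the 4-gene probe sets, in contrast, were close to each other. Their difference was -1.36, -1.31 and -1.30 in the SH3GL2 arrays, against -1.19, -1.26 and -1.09 in the empty vector arrays, so that the SPANXB1 probe set fell by 0.14 (standard error 0.05) more. The nearest arrays of the 2 groups, at -1.30 and -1.26, were closer together than the empty vector arrays among themselves. All 3 comparisons gave p = 0.1 in the two-sided exact permutation test and adjusted p = 0.1 over the 3 pairs, which is the smallest p possible and cannot pass 0.05. The extra decrease of the SPANXB1 over the 4-gene probe set ranged from 0.09 with 16 added to the linear signals (exact p = 0.2) to 0.26 with the reference median subtracted from them, and was 0.10 without empty vector replicate 3 (exact p = 0.1). The other 2 differences moved less, and no pair changed direction. The part that binding of several SPANX transcripts to one probe set has in these differences was not tested.

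**Figure D2:**
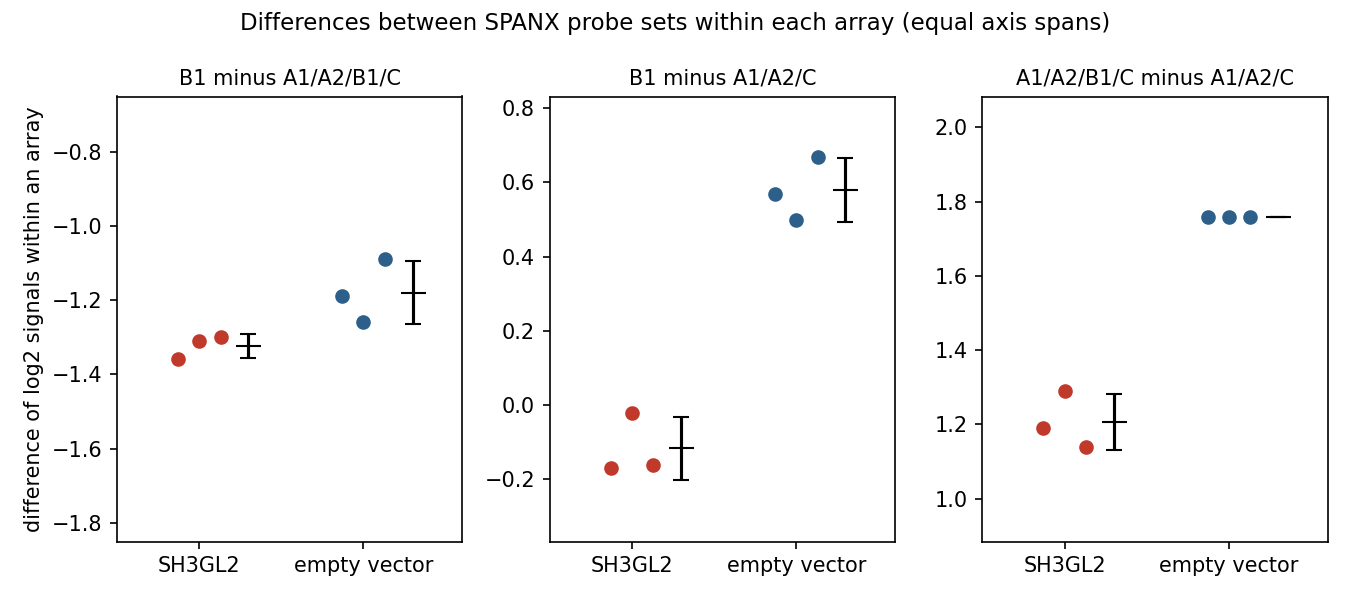
Difference of log2 signals between 2 SPANX probe sets within each array, for SH3GL2 and empty vector arrays, where each point is an array and each bar a mean with its SD (n = 3). A1, A2, B1 and C stand for the SPANX genes each probe set is assigned to. The step between the groups is 0.70 and 0.55 where the 3-gene probe set is subtracted and 0.14 between the SPANXB1 and 4-gene probe sets.

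SPANX signals also moved together within the SH3GL2 group. All 3 probe sets were highest in SH3GL2 replicate 2, at 0.20, 0.19 and 0.10 above their group means, and lowest in SH3GL2 replicate 1, at -0.19, -0.15 and -0.14 from them. In the empty vector group the 4-gene and 3-gene probe sets had the same deviations of -0.04, 0.09 and -0.06, whereas the SPANXB1 probe set varied by -0.05, 0.01 and 0.03. With 3 arrays a group this is given as a description, and the genes assigned to the probe sets overlap. It is not particular to SPANX. Of genes described below, PLAC8, NCAM1 and RUNX1T1 were also highest in SH3GL2 replicate 2, whereas MAGEA11 and FBXL7 were not.

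The 3 SPANX probe sets were the 3 largest decreases of 22215 probe sets, and no probe set outside the family came close to their profile. As a measure of likeness, the 6 values of each probe set were centred on their mean and the root mean square distance to the SPANXB1 probe set was taken. It was 0.09 for the 4-gene and 0.36 for the 3-gene probe set, against a median of 1.81 over all others. The nearest probe sets with 1 gene symbol were those of PLAC8 (0.77), NCAM1 (0.82), MAGEA11 (0.92), FBXL7 (0.97) and RUNX1T1 (1.08). This distance takes in the size of a decrease as well as its pattern over the arrays.

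PLAC8, a small cysteine-rich protein, had 6.71, 7.04 and 6.62 in the SH3GL2 arrays, against 8.80, 8.89 and 8.89 in the empty vector arrays, and fell by 2.07 on the log2 scale (adjusted p = 1.28e-07 in limma). FBXL7, an F-box protein of ubiquitin ligases, fell by 1.69 (adjusted p = 4.88e-07). NCAM1, a neural cell adhesion molecule, fell by 1.98 (adjusted p = 4.92e-06), and RUNX1T1, a transcriptional corepressor, fell by 1.44 (adjusted p = 4.25e-05). NCAM1 and RUNX1T1 lay below 7.03 in both groups. They lost their calls in an analysis of variance of each probe set (adjusted p = 0.0800 and adjusted p = 0.101). In simulated data that test recovered 54% of 2-fold changes, against 96% with limma, but changes of the size of these genes were not simulated. PLAC8 and FBXL7 kept their calls in the analysis of variance (adjusted p = 0.0450 and adjusted p = 0.0430). Why NCAM1 and RUNX1T1 lost theirs was not tested. NCAM1 was called on 1 of its 4 probe sets and RUNX1T1 on 2 of 4. The SH3GL2 mean of RUNX1T1 (4.20) lay below the reference median. Its log2 fold change was -0.79 with a floor at that median and -0.38 with that median subtracted, which ended its call (adjusted p = 0.478).

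**Figure D3:**
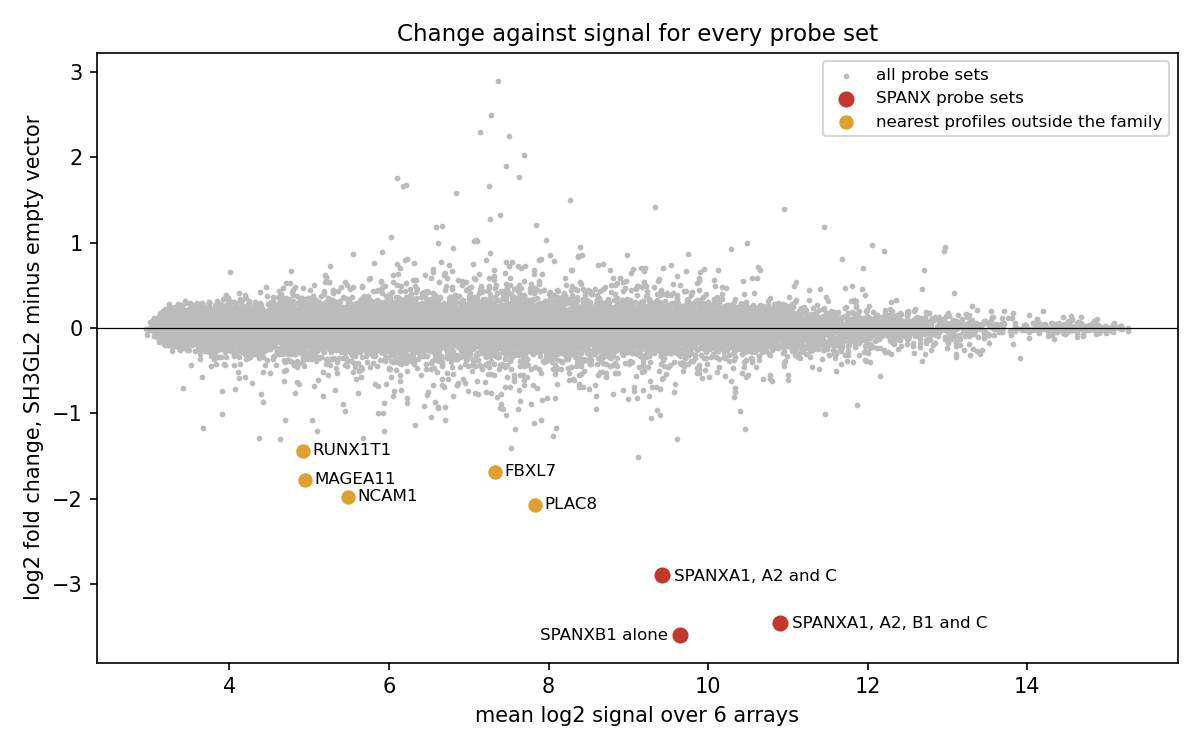
Log2 fold change, SH3GL2 minus empty vector, against mean log2 signal over 6 arrays for 22215 probe sets, with the SPANX probe sets and the 5 nearest profiles outside the family marked. The SPANX points lie at -3.60, -3.45 and -2.90, and the next decrease is PLAC8 at -2.07.

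Genes around the SPANX cluster were examined in RefSeq order, taking the nearest genes that a probe set names alone. Beyond SPANXA2, MAGEC3 differed by 0.03 between the groups (limma, adjusted p = 0.939) at means of 4.23 with SH3GL2 and 4.20 with empty vector, both below the reference median. MAGEC1, the next gene on that side, had 5.38, 5.36 and 5.52 in the SH3GL2 arrays, against 5.80, 6.12 and 5.80 in the empty vector arrays, and fell by 0.49 (adjusted p = 0.0254). This call was lost with a floor at the median of the reference, with that median subtracted, in the analysis of variance (adjusted p = 0.248), without any 1 of the SH3GL2 arrays and without empty vector replicate 2. LDOC1, which lies between SPANXB1 and SPANXC, had 4.78, 4.35 and 4.49 in the SH3GL2 arrays, against 5.07, 4.93 and 4.76 in the empty vector arrays. Its groups overlapped and its log2 fold change of -0.38 did not pass (adjusted p = 0.124).

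On the SPANXB1 side of the cluster, SOX3, a transcription factor of the nervous system, had -0.05 (adjusted p = 0.896) near the reference median. MCF2 rose by 0.38 on 1 of 3 probe sets (adjusted p = 0.0406), at means of 5.93 with SH3GL2 and 5.55 with empty vector. MCF2 lost its call without any 1 of the 6 arrays, with a floor at the median of the reference, with that median subtracted and in the analysis of variance (adjusted p up to 0.186). None of these 5 neighbours reached 7.03 in either group, so little can be read from those that were not called.

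Other genes that share a property with SPANX were examined as lists, beside the share of calls over all genes. Most genes of the array were not called either. In simulated data limma recovered 8% of 1.2-fold and 56% of 1.5-fold changes, so a gene not called may still have changed. Among 32 further CTA genes of the X chromosome that a probe set names alone, 4 fell and 0 rose in limma, against 2.36% of all 11963 genes lower and 2.54% higher. At an unadjusted p under 0.05, 5 were lower and 0 higher. The share of all genes at that threshold was not taken, so this count is not read as a result about these genes. The analysis of variance called 1 lower and 0 higher, against 44 lower and 33 higher of all 22215 probe sets. The 4 probe sets shared among GAGE genes, another CTA family of the X chromosome, name no gene alone and are not in this count, and they were higher, by 1.77 to 2.29 (adjusted p up to 1.70e-07). This is the opposite direction to SPANX. The probe set that names GAGE1 alone is in the count and was not called (-0.10, limma, adjusted p = 0.726). Its means of 3.85 with SH3GL2 and 3.94 with empty vector lay below the reference median. Over the 32 genes the log2 fold changes had a median of -0.02, against 0.02 over all genes. The 4 that fell were MAGEA11 (-1.78), MAGEC2 (-1.40), MAGEC1 (-0.49) and MAGEB2 (-0.34), members of the MAGE family. MAGEB2 lay below the reference median in both groups, at means of 4.09 with SH3GL2 and 4.43 with empty vector, and no change was left with the floor. MAGEA11 had 4.07, 4.01 and 4.07 in the SH3GL2 arrays, against 5.84, 5.68 and 5.98 in the empty vector arrays, below 7.03 throughout. Its SH3GL2 arrays lay below the reference median, and its log2 fold change was -0.98 with the floor and -0.80 with that median subtracted, which ended its call (adjusted p = 0.128). MAGEC2 had 6.67, 7.06 and 6.76 in the SH3GL2 arrays, against 8.20, 8.48 and 8.02 in the empty vector arrays, and its other probe set had 0.13 (adjusted p = 0.725). A mean above 7.03 in either group was found for 5 of the 32. In the analysis of variance MAGEA11 kept its call and MAGEC2 lost it (adjusted p = 0.101). The count of 4 was 2 without any 1 of the SH3GL2 arrays, without empty vector replicate 2 and with a floor at the median of the reference, and 1 with that median subtracted and in the analysis of variance.

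Of 57 sperm and spermatid genes, 0 fell and 1 rose in limma, against 2.36% lower and 2.54% higher over all genes. Their median was 0.03, and 8 of them had a group mean above 7.03. SPAG1, a cytoplasmic factor of dynein arm assembly, had 6.31, 6.45 and 6.29 in the SH3GL2 arrays, against 5.61, 5.87 and 6.06 in the empty vector arrays (log2 fold change 0.50, adjusted p = 0.0293). Leaving out any array other than empty vector replicate 3 ended this call, as did the floor, the subtraction and the analysis of variance. At an unadjusted p under 0.05, 3 sperm genes were lower and 3 higher. Without the share of all genes at that threshold, which was not taken, this count is not read as a result. The analysis of variance called 0 of them, against 44 lower and 33 higher of all 22215 probe sets. The protamine genes PRM1 and PRM2, which pack DNA in sperm, had 5.46 and 4.55 with SH3GL2, against 5.41 and 4.40 with empty vector. Both protamines, named here after their values were seen, thus lay near the reference in both groups. In this they differed from SPANX and from the 8 sperm genes above 7.03, and they do not stand for the list.

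Of 49 nuclear envelope genes, chosen because SPANX proteins lie at the nuclear envelope of sperm, 45 had a mean above 7.03, and 1 fell and 2 rose in limma, against 2.36% lower and 2.54% higher over all genes. At an unadjusted p under 0.05, 5 were lower and 3 higher. The share of all genes was not taken there, and the count is not read as a result. NUP210, a membrane protein of the nuclear pore, had 8.31, 8.48 and 8.66 in the SH3GL2 arrays, against 7.50, 7.41 and 7.46 in the empty vector arrays, and rose by 1.03 (adjusted p = 3.25e-05), with 4 of its 5 probe sets called higher. BANF1, which binds DNA to the envelope, rose by 0.33 (adjusted p = 0.0448), and LPIN1, a lipid phosphatase, fell by 0.25 (adjusted p = 0.0160) on 1 of its 3 probe sets. BANF1 lost its call with each array centred on its median, with the floor, with the reference median subtracted, without an intensity trend and without any 1 of SH3GL2 replicates 2 and 3 and empty vector replicates 1 and 2. LPIN1 lost its call without a trend, without SH3GL2 replicate 3 and without empty vector replicate 2 or 3. In the analysis of variance all 3 lost their calls. In simulated data that test recovered 54% of 2-fold, 12% of 1.5-fold and 4% of 1.2-fold changes. For limma the shares were 96%, 56% and 8%.

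**Figure D4:**
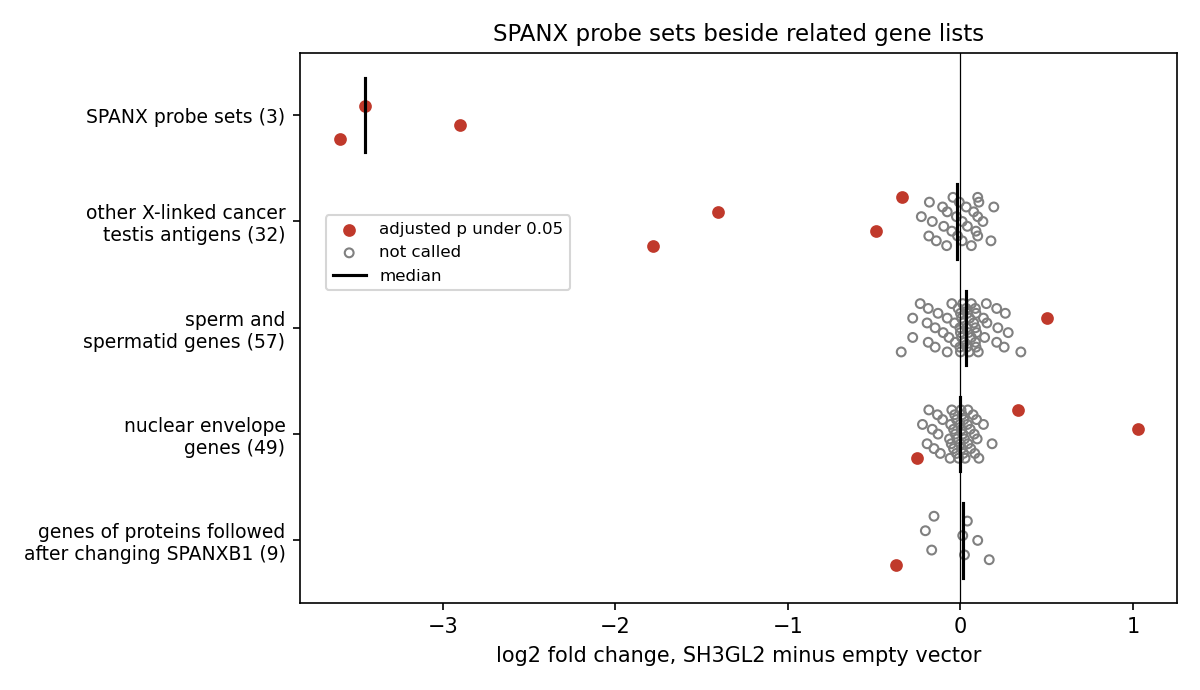
Log2 fold change, SH3GL2 minus empty vector, of the 3 SPANX probe sets and of the genes of 4 lists, with 1 point per probe set or gene, filled where the adjusted p was under 0.05, and a line at the median. The list medians lie between -0.02 and 0.03, whereas the SPANX probe sets lie at -2.90 and below.

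The study followed several proteins after changing SPANXB1, namely the small GTPase RAC1, the focal adhesion proteins FAK (PTK2) and Vinculin (VCL), alpha-Actinin (ACTN1, ACTN4), the junction proteins CDH1 and ZO-1 (TJP1), and Snail (SNAI1) and Slug (SNAI2), repressors of CDH1. It did so in lines other than SUM-159. After SPANXB1 knockdown it reports less RAC1, FAK, Vinculin, alpha-Actinin, Snail and Slug protein, and more CDH1 and ZO-1. The arrays here differ in cell line, changed SH3GL2 instead and measured mRNA, so they do not repeat those experiments. On these arrays 1 of the 9 genes fell and 0 rose in limma, against 2.36% lower and 2.54% higher over all genes. The median of the 9 genes was 0.01. At an unadjusted p under 0.05, 3 were lower and 0 higher, with no share over all genes taken at that threshold for comparison. The analysis of variance called 0 of them, but only 44 lower and 33 higher of all 22215 probe sets. Neither count is read as a result about these genes. SNAI2 had 10.22, 10.06 and 10.13 in the SH3GL2 arrays, against 10.44, 10.49 and 10.60 in the empty vector arrays, a log2 fold change of -0.37 (adjusted p = 0.00555 in limma). It lost its call with the floor, with the reference median subtracted and in the analysis of variance (adjusted p up to 0.168). RAC1 (0.02), PTK2 (0.04) and VCL (0.01) had the smallest log2 fold changes at high signals, with adjusted p of 0.846, 0.853 and 0.968. ACTN1 (-0.15), ACTN4 (-0.17) and TJP1 (-0.20) had values below 0 and did not pass (adjusted p = 0.20, 0.359 and 0.122), and ACTN1 passed only without SH3GL2 replicate 2 (adjusted p = 0.0322). CDH1 (0.10) and SNAI1 (0.17) lay below 7.03 in both groups and were not called. The mRNA values say nothing of the proteins.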

How the data were processed

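RNA of SUM-159 cells was hybridized to 6 arrays, 3 per group. The values the authors deposited are on a log2 scale. GCOS was used for scanning, and MAS5 is named in the submitters' processing notes, with no version. A scaling between arrays is not given in the sources used here, so a change is relative to the rest of the array. Signal over background and the number of arrays limit the precision.

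Of 22277 probe sets, 62 controls were left out. Members were the probe sets annotated to SPANX genes. They and the lists were chosen with earlier results of these data known. The groups were tested with limma 3.58.1 in R 4.3.3, using lmFit and a trended eBayes. The tests were two-sided, p-values were adjusted by Benjamini-Hochberg over 22215 probe sets, and calls were made at 0.05. Errors are SD over 3 arrays or, for limma, the standard error of the log2 fold change. Standard errors of differences between probe sets come from the SDs of both groups. Lists used 1 probe set per gene, the brightest with 1 symbol. Genes named were SPANX and SH3GL2, the 5 nearest profiles, 2 neighbours on each side and any between, the followed proteins and up to 4 called genes per list. PRM1, PRM2 and the shared GAGE probe sets were added after their values were seen. Promoters came from RefSeq, aligned with Biopython 1.88, and figures were drawn with matplotlib 3.10.9.

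Alternatives were quantile normalization, median centring, 16 added to linear signals, a floor at the reference median, that median subtracted, the brighter probe sets, eBayes without a trend or robust, an analysis of variance, a replicate block, an adjusted p under 0.01, the mean of a gene's probe sets and leaving out each array. The fits were tested on simulated data.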

Additional observations from a re-analysis of the deposited data

How the results depend on the processing

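The decreases of the 3 SPANX probe sets passed the threshold under all 16 alternatives run, with log2 fold changes of -3.78 to -3.50 for the SPANXB1, -3.55 to -3.38 for the 4-gene and -3.06 to -2.82 for the 3-gene probe set. Their largest adjusted p was 0.0140, in the analysis of variance. The 9 alternatives for each difference between probe sets kept its direction, and in none could the exact test pass.

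Counts moved more. The 485 lower and 441 higher probe sets were 160 and 133 with the floor at the reference median, 157 and 134 with that median subtracted, 44 and 33 in the analysis of variance, 256 and 191 at an adjusted p under 0.01, and 270 were higher without an intensity trend. Without 1 array they were 296 to 437 lower and 184 to 376 higher. The 4 lower CTA genes were 2 with the floor, 1 with the median subtracted, 1 among the brighter probe sets, 1 in the analysis of variance and 2 to 3 without 1 array. The 1 higher sperm gene was 0 in the same 4 settings and 0 to 1 without 1 array. The 2 higher nuclear envelope genes were 1 with median centring, the floor, the median subtracted or no trend, 0 in the analysis of variance and 1 to 3 without 1 array. The 1 lower was 0 without a trend, in the analysis of variance and with the mean of a gene's probe sets, 2 with a replicate block and 0 to 2 without 1 array. The 1 lower followed gene was 0 with the floor, with the median subtracted and in the analysis of variance, and 1 to 2 without 1 array. The cause was not tested.

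Without 1 array, log2 fold changes of genes not called changed sign for SOX3 (-0.113 to 0.042), MAGEC3 (-0.072 to 0.145), VCL (-0.080 to 0.083), PTK2 (-0.0050 to 0.115) and SH3GL2 (-0.0033 to 0.087). Replicate numbers were not taken as pairs. Between the groups, residual correlations of arrays of the same number were -0.01, 0.13 and 0.15, against -0.155 to 0.02 for arrays of different number. Of 6 arrays, 4 correlated best with their own number. The labels do not say whether equal numbers were paired. With a replicate block 573 probe sets were lower and 506 higher, and the SPANXB1 probe set kept -3.60 (adjusted p = 1.36e-10 in limma). The block ended the call of MAGEB2 (adjusted p = 0.0643), so that 3 CTA genes were lower. MAGEB2 also lost its call without any 1 array, with a robust prior, in the analysis of variance, with the floor and with the median subtracted, where no change was left.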

Other observations

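The spread of the SPANX signals between arrays was set beside that of other probe sets of like brightness. In the SH3GL2 arrays the SPANXB1 probe set had an SD of 0.20, against a median of 0.09 over 2987 probe sets outside the family within 0.5 of its mean signal, of which 94.0% had a smaller SD. The 4-gene probe set had 0.17 and the 3-gene probe set 0.12, above 91.4% and 74.9% of their like probe sets. In the empty vector arrays the SPANXB1 probe set had an SD of 0.04, above 30.1% of 846 like probe sets, the 4-gene probe set 0.08, above 78.2% of 394, and the 3-gene probe set 0.08, above 63.9% of 1209. These are descriptions over 3 arrays a group, and no test was made.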
